A study of Homo sapiens with 3 samples.

Results

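The 3 PIM kinase genes PIM1, PIM2 and PIM3 were taken by name from a table of read counts for 15808 genes, and all 3 were present. The counts came from RNA sequencing of 3 replicate libraries of OCI-Ly10, an established human line of activated B cell-like diffuse large B cell lymphoma, treated with MZ1 for 6 h. MZ1 is a small molecule that brings BET bromodomain proteins to the VHL ubiquitin ligase, which marks them for degradation. The labelled libraries form 1 group and no untreated cells were analysed here, so the values below are levels in treated cells and no effect of MZ1 was estimated. Nothing in the labels ties the replicates to separate cultures, so p-values measure only the spread between these libraries, which may be technical.

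PIM proteins are serine/threonine kinases that are active as soon as they are translated, so the amount of kinase in a cell follows the synthesis and decay of its messenger RNA and protein. Cytokine receptors that act through JAK and STAT factors, and NF-kB, raise their transcription. They phosphorylate regulators of cell survival, the cell cycle and cap-dependent translation, several of which are also substrates of the AKT kinases. PIM1 is also a frequent target of aberrant somatic hypermutation in diffuse large B cell lymphoma, and PIM2 is prominent in mature B cell and plasma cell tumours.

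The libraries differed in depth and in make-up. There were 5474462 counts in replicate 1, 1441246 in replicate 2 and 1314812 in replicate 3. Levels are given as CPM, a read count expressed against the size of its library after TMM scaling (a trimmed mean that corrects for make-up), and 1 count was worth 0.20, 0.629 and 0.767 CPM in replicates 1, 2 and 3. All 9 listed B cell markers, such as CD79A and MS4A1, reached 1 CPM in every library, and their summed level was 3583, 3215 and 3978 CPM in replicates 1, 2 and 3. Of the 5 T cell markers CD2 and CD4 were in the table, with no more than 7 counts in a library. Of the 4 myeloid markers 3 were in the table, and their sum was 40.0, 28.3 and 26.8 CPM. Most of that sum was MPO, at 31.8, 20.1 and 22.2 CPM.

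PIM2 was the most abundant PIM transcript. PIM2 (ENSG00000102096.9, GRCh38 chromosome X, 48913182 to 48919024, minus strand) had 1969, 942 and 622 counts in replicates 1, 2 and 3. These are 394, 592 and 477 CPM, a mean of 488 ± 99.6 CPM (SD, n = 3). PIM2 was highest in replicate 2 (as were 28.7% of genes of at least 10 CPM) and lowest in replicate 1, and by CPM it held a rank between 180 and 376 among the 15808 genes.

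PIM1 lay below PIM2 in each library. PIM1 (ENSG00000137193.12 in the count table, GRCh38 chromosome 6, 37170203 to 37175426, plus strand) had 858, 205 and 162 counts in replicates 1, 2 and 3. Its level was 172, 129 and 124 CPM, a mean of 142 ± 26.1 CPM (SD, n = 3). PIM1 was highest in replicate 1, and after TMM scaling replicates 2 and 3 were close to each other. Scaled by column totals instead, PIM1 had 157, 142 and 123 CPM in replicates 1, 2 and 3. With DESeq2 size factors it had 170, 133 and 122 CPM.

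PIM3 was the least even of the family. PIM3 (ENSG00000198355.4, GRCh38 chromosome 22, 49960513 to 49964080, plus strand) had 1037, 100 and 77 counts in replicates 1, 2 and 3. Its level was 207, 62.9 and 59.1 CPM, a mean of 110 ± 84.5 CPM (SD, n = 3). In CPM replicate 1 stood apart from the others, which differed by less than their counting error, and the mean is therefore no typical value. The comparison with genes of like GC content is given below. With replicate 1 left out and TMM scaling fitted again on the others, the mean was 63.9 CPM. It is therefore not the mean of the CPM given above.

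**Figure D1:**
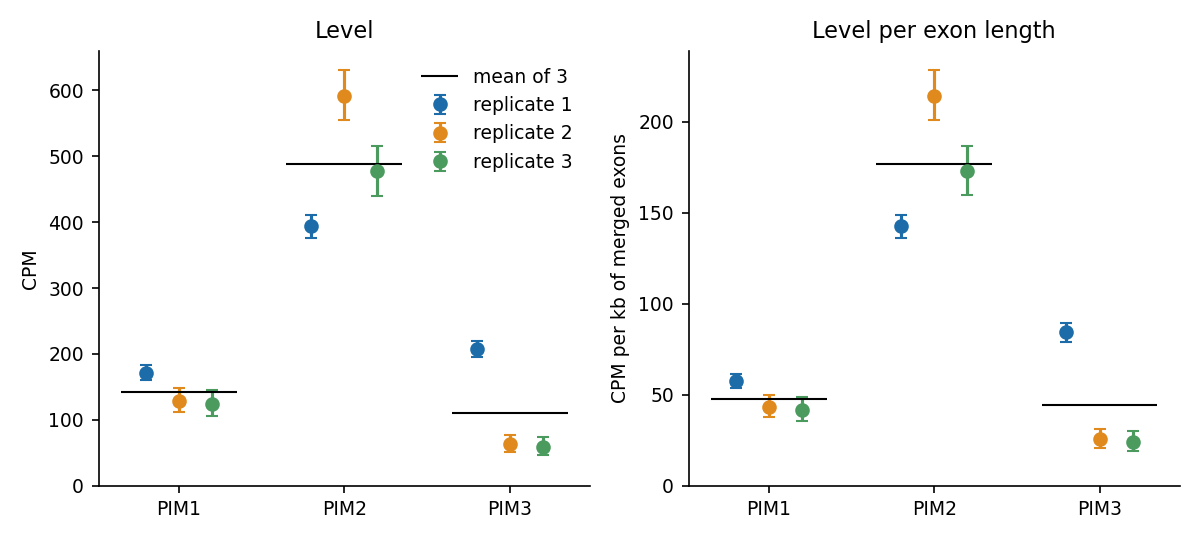
Levels of PIM1, PIM2 and PIM3 in the 3 MZ1-treated OCI-Ly10 libraries, as CPM (left) and as CPM per kb of merged exons (right). Points are libraries with exact 95% Poisson intervals, which cover counting error only, and black lines are means of 3; PIM2 lies on top in every library, and PIM3 is high only in replicate 1, at 207 CPM against 62.9 and 59.1 CPM.

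Each PIM gene has 6 exons in its longest coding transcript, and none of the 3 has exons that overlap a gene on the opposite strand in GENCODE release 29. Reads of an annotated antisense partner therefore do not enter these counts. The coding sequences are 942 bases in PIM1, 936 in PIM2 and 981 in PIM3, stop codon included. In global alignments PIM3 and PIM1 were identical at 75.4% of aligned bases, PIM2 and PIM1 at 65.3% and PIM3 and PIM2 at 65.0%. The longest identical stretch within the family was 23 bases, between PIM3 and PIM1. No window of 50 bases in the 3 coding transcripts occurred in a transcript of another gene. Among windows of 25 bases the shared part was 0.571% in PIM1, 0.244% in PIM2 and 0 in PIM3.

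The 3′ UTRs were compared by length and by AU-rich letters. The 3′ UTR is 1335 bases in PIM1, 949 in PIM2 and 953 in PIM3. The pentamer ATTTA, the core of the AU-rich elements that mark many short-lived messenger RNAs, occurred 5, 2 and 4 times in PIM1, PIM2 and PIM3. At least as many occurred in 21.9%, 48.5% and 19.4% of coding genes with a 3′ UTR of like length, so these counts are common. The longer TATTTAT occurred 4, 0 and 2 times, overlaps counted. Among 2346 coding genes with a 3′ UTR of 0.8 to 1.2 times the length of that of PIM1, 0.853% had at least 4 matches to TATTTAT. For PIM3, 6.38% of 2179 genes of like length had at least 2 matches. All 4 matches of PIM1 lie in a single stretch of 30 bases at chr6:37174981-37175010 (GRCh38, plus strand), shown here because it is the densest of the family, with the overlapping TATTTAT matches in capitals.
PIM1 3′ UTR: tcaatgttatgTATTTATTTATTTATTTAT

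The sequence before the RefSeq start also differed between the genes. RefSeq promoters (GRCh38.p14) were matched by symbol for all 3 genes, and the 250 bases before the RefSeq start were searched on both strands. The motifs were chosen with the PIM promoter sequences in view. The octamer ATGCAAAT, the motif bound by the POU2F factors of B cells, occurred 2 times before PIM2, at 160 and 123 bases from the start, and not before PIM1 or PIM3. At least 1 octamer was present in 1.63% of 35116 promoters, and at least 2 in 13 of them. GC boxes (GGGCGG) numbered 4 in PIM1, 1 in PIM2 and 4 in PIM3, and 42.6% of promoters had at least 1. The STAT motif TTCNNNGAA (6.57% of promoters) and the E-box CACGTG (6.34%) had no match in the 3 windows, which says only that these letters are not there. The GC content of the windows was 79.6% in PIM1, 61.2% in PIM2 and 82.0% in PIM3. The windows of PIM2 (chrX:48919025-48919274, minus strand) and PIM1 (chr6:37169902-37170151, plus strand) are shown because they differ in these motifs. Octamers, a CCAAT box (ATTGG on this strand, in 32% of promoters on either strand) and a GC box are in capitals for PIM2, and GC boxes for PIM1.
PIM2 promoter: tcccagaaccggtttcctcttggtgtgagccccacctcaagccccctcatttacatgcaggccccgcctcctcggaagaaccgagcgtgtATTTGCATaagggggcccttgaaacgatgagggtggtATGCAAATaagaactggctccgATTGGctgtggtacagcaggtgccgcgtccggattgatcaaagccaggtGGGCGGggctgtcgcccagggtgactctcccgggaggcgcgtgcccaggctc
PIM1 promoter: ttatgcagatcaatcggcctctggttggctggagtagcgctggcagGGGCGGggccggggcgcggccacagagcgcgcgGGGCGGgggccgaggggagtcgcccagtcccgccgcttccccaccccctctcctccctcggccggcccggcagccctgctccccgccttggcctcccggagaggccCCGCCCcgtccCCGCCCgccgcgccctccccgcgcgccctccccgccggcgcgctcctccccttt

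The window of PIM3 is not shown, because GENCODE places the start of PIM3 259 bases upstream of the RefSeq start. The window therefore lies within its annotated 5′ end. The motif counts and GC content given for PIM3 describe that window, and the sequence before its GENCODE start was not searched. Of the genes for octamer-binding proteins, chosen after their values were seen, POU2F2 had 1271, 2073 and 3253 CPM in replicates 1, 2 and 3 and POU2F1 had 13.2, 18.2 and 11.5 CPM. The coactivator gene POU2AF1, whose exons overlap an opposite-strand gene, had 244, 245 and 120 CPM. Binding to these sites was not measured.

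Levels of different genes are comparable only per length, so CPM were divided by the merged exon length (2.977 kb for PIM1, 2.761 kb for PIM2 and 2.461 kb for PIM3). The count table lists PIM1 under an earlier version of its identifier than GENCODE release 29 does, so the PIM1 exons used for counting, and with them its values per kb, may differ. PIM2 had 143, 214 and 173 CPM per kb in replicates 1, 2 and 3. PIM1 had 57.6, 43.3 and 41.7 CPM per kb, and PIM3 had 84.2, 25.5 and 24.0 CPM per kb. PIM2 was on top in 3 of 3 libraries, whereas PIM3 lay above PIM1 in replicate 1 and below PIM1 in the others.

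The log2 ratio of PIM2 to PIM1 per kb was 1.30, 2.30 and 2.05 in replicates 1, 2 and 3. Its mean of 1.88 ± 0.52 is a 3.69-fold difference (exact two-sided sign-flip permutation p = 0.25, and 0.375 adjusted over 3 pairs). The ratio of PIM3 to PIM2 was -0.76, -3.06 and -2.84, a mean of -2.22 ± 1.27 with the same exact and adjusted p. With 3 libraries 0.25 is the smallest p this test can give, so no pair could pass 0.05. Counting error was small beside these ratios. In the shallowest library the exact 95% interval of the log2 ratio of PIM2 to PIM1 was 1.80 to 2.31.

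PIM3 and PIM1 had no fixed order. Their log2 ratio was 0.55 in replicate 1 (exact 95% interval 0.42 to 0.68), -0.76 in replicate 2 (-1.12 to -0.41) and -0.79 in replicate 3 (-1.21 to -0.40). The mean of -0.33 ± 0.76 did not exceed its spread (exact permutation p = 0.5), and without replicate 1 it was -0.77. The libraries thus disagree on the order of PIM3 and PIM1 by more than counting error.

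After TMM scaling the summed level of the family was more even than its make-up. Unlike the shares, the sum depends on how the libraries are scaled. The 3 genes together had 284, 283 and 239 CPM per kb in replicates 1, 2 and 3, and the highest sum was 1.19 times the lowest. Of this sum PIM2 took 50.1%, 75.7% and 72.4%. PIM1 took 20.3%, 15.3% and 17.5%, and PIM3 29.6%, 9.02% and 10.1%. PIM2 held the largest share in each library and its share had the widest range, lowest in replicate 1, where the share of PIM3 was highest. As shares of the raw PIM counts, with exact Clopper-Pearson 95% intervals, PIM2 had 51.0% (49.4 to 52.5%), 75.5% (73.1 to 77.9%) and 72.2% (69.1 to 75.2%) in replicates 1, 2 and 3. The interval of PIM2 in replicate 1 includes 50%. PIM3 had 26.8% (25.4 to 28.3%), 8.02% (6.57 to 9.67%) and 8.94% (7.12 to 11.1%).

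**Figure D2:**
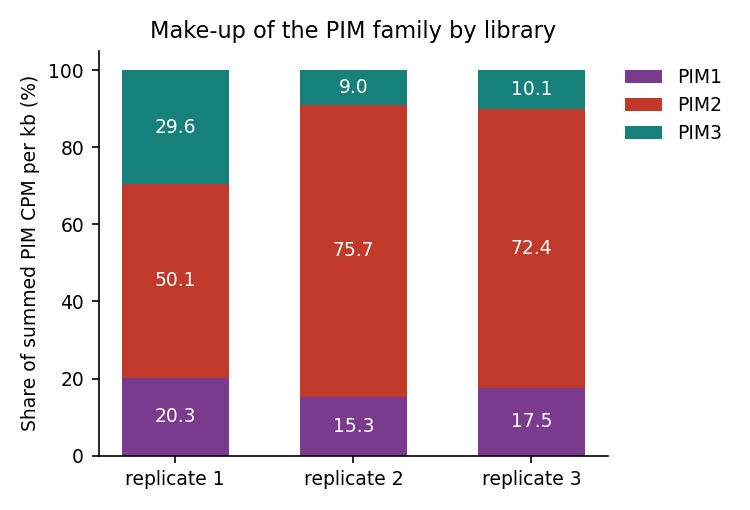
Share of each PIM gene in the summed CPM per kb of the family (percent, stacked to the full sum) in replicates 1, 2 and 3. PIM2 makes up 50.1% to 75.7% of the sum, and the PIM3 share is 29.6% in replicate 1 and 9.02% and 10.1% in the others.

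All 3 genes varied between libraries beyond counting error, as did 67.2% of the 10016 genes tested. The chi-square test set the counts of a gene in the 3 libraries against those expected at equal expression. Where the mean count was 100 or more, 86.0% varied, so the calls do not set the PIM genes apart. The adjusted p was 1.01e-54 for PIM3, 1.91e-23 for PIM2 and 1.96e-05 for PIM1 (chi-square test, Benjamini-Hochberg over all genes tested). The SD of log2(CPM + 0.5) ranks genes by spread with less weight on depth. It was 1.02 for PIM3, higher than for 85.8% of the 7510 genes of at least 10 CPM. It was 0.29 for PIM2 and 0.25 for PIM1, higher than for 23.7% and 18.5% of those genes.

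The calls for PIM1 and PIM3 rest on replicate 1. Without it PIM2 still varied (chi-square test, adjusted p = 6.85e-07), while the adjusted p was 0.492 for PIM1 and 0.556 for PIM3, and 33.8% of the 8447 genes tested varied. With the libraries thinned to equal depth the adjusted p of PIM1 was 0.0583 by the same chi-square test, and 63.2% of genes varied. In bulk libraries fewer cells with a transcript and less transcript per cell cannot be told apart. The directions differed within the family. PIM1 and PIM3 were highest in replicate 1, as were 43.1% of genes of at least 10 CPM, and PIM2 was lowest there, as were 34.0%.

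Over the whole table replicate 2 was low in GC-rich transcripts, so each PIM gene was set beside genes grouped by GC content. The longest transcript has 56.1% GC in PIM1, 55.1% in PIM2 and 67.1% in PIM3. Genes of at least 10 CPM were divided into 8 equal bins by GC content, with PIM1 and PIM2 in the seventh bin and PIM3 in the most GC-rich bin, each of 936 genes. For replicate 2 minus replicate 1, PIM3 differed by -1.71 on the log2 scale, beside a bin median of -1.37. For replicate 3 minus replicate 1 it differed by -1.80, beside a bin median of -0.24, and 7.16% of the genes in the bin lay lower. Against replicate 1 the low PIM3 value of replicate 2 was thus near the median of its bin, and that of replicate 3 was not. For replicate 3 minus replicate 2, PIM3 differed by -0.09, beside a bin median of 1.02, and 7.91% of the genes in the bin lay lower. Replicates 2 and 3 were thus close in CPM for PIM3, but not beside genes of like GC content. This bin is wide, from 58.3% to 70.3% GC with a median of 61.0%, and PIM3 lies above that median. For replicate 2 minus replicate 1 the bin median fell from -0.78 in the seventh bin to -1.37 in the last. The median of the bin therefore need not hold at the GC content of PIM3.

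PIM1 differed by -0.41 between replicates 2 and 1 and by -0.46 between replicates 3 and 1, beside bin medians of -0.78 and -0.25. PIM2 went against its bin. It differed by 0.59 between replicates 2 and 1 and by 0.28 between replicates 3 and 1, and 90.4% and 73.5% of the genes in the bin lay lower. For replicate 3 minus replicate 2, PIM1 differed by -0.05 and PIM2 by -0.31, beside a bin median of 0.56. The part of GC content or depth in the PIM differences was not tested.

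**Figure D3:**
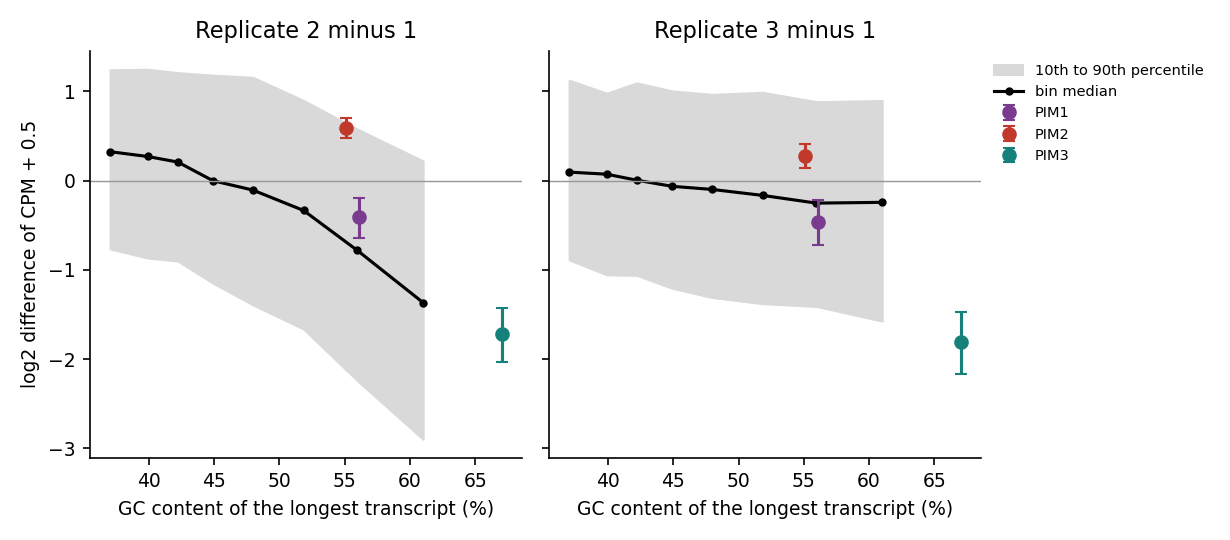
Difference between libraries (log2 of CPM + 0.5; replicate 2 minus 1 on the left, replicate 3 minus 1 on the right) against the GC content of the longest transcript. Black points join the medians of 8 equal bins, grey spans the 10th to 90th percentile of genes in each bin, and coloured points are PIM genes with exact 95% intervals of counting error; PIM2, at 0.59 and 0.28, lies above its bin median in both panels, and PIM3 lies at -1.71 and -1.80.

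The profiles most like each PIM gene were found by the Euclidean distance of centred log2 values over the 3 libraries, among 7494 genes of at least 10 CPM. Nearest to PIM2 were ZDHHC3 (distance 0.00456; 44.8, 67.9 and 54.5 CPM in replicates 1, 2 and 3), ACTL6A (0.0126) and TAMM41 (0.0137). Nearest to PIM1 were ATP6V1A (0.00514; 80.2, 60.3 and 58.3 CPM), JRK (0.0136) and TDP1 (0.0160). Nearest to PIM3 were PHGDH (0.0316; 69.2, 21.4 and 19.9 CPM), ATP5MC3 (0.0467) and HERPUD1 (0.0516). PHGDH opens serine synthesis and HERPUD1 acts in the degradation of proteins of the endoplasmic reticulum. With 3 points per profile many genes lie close, and the PIM genes were far from each other, at 0.73 for PIM2 and PIM1, 1.08 for PIM3 and PIM1 and 1.80 for PIM3 and PIM2.

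The nearest genes of the table on each chromosome, chosen after their values were seen, were all below the PIM gene beside them. SLC35A2, which lies 1224 bases from PIM2 on the same strand, had 66.2, 131 and 160.3 CPM in replicates 1, 2 and 3, and OTUD5, 3004 bases away on the other side, had 90.8, 54.7 and 75.2 CPM. The nearest to PIM1 was TMEM217, 36754 bases away, with 1, 1 and 0 counts. The nearest to PIM3 was IL17REL, 30433 bases away, with 15, 3 and 3 counts. An intron of PIM3 holds the microRNA gene MIR6821, which is not among the genes of the table.

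Beside the listed kinases PIM2 stood at the top per kb of exon. It lay above all 55 listed kinases of the table in all 3 libraries per kb of exon, and above 54 of 55 without length correction, where JAK1 passed it in replicate 1. PIM1 lay above 51 of the 55 and PIM3 above 48 in all 3 libraries per kb, and above 47 and 33 without length correction. The highest listed kinases were JAK1, which signals from cytokine receptors, at 63.3 ± 12.9 CPM per kb (SD, n = 3), the cell cycle kinase gene CDK4 at 52.5 ± 24.1 and the B cell receptor kinase genes BTK at 48.8 ± 2.58 and SYK at 42.6 ± 16.6 CPM per kb. SGK1 was the lowest at 0.22 ± 0.0273 CPM per kb, from only 12, 3 and 3 counts in replicates 1, 2 and 3. AKT1 and AKT2, whose kinases share substrates with PIM, had 5.15 ± 1.39 and 3.62 ± 1.78 CPM per kb. Merged exons pool all annotated transcripts of a gene, so values per kb may understate genes with long merged exons. In CPM, without length, AKT1 had 75.4, 49.7 and 47.6 in replicates 1, 2 and 3, and AKT2 had 80.4, 27.0 and 56.0. PIM3 had 207, 62.9 and 59.1 CPM. The list median was 7.23, 5.03 and 5.52 CPM per kb in replicates 1, 2 and 3, beside 4.17, 3.59 and 3.99 CPM per kb for all genes of at least 1 CPM in every library. JAK1, CDK4 and AKT1 have exons that overlap an opposite-strand gene. Of the listed kinases 41 of 54 tested (75.9%) varied between libraries, beside 67.2% of all genes tested and 86.0% of those with a mean count of at least 100.

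**Figure D4:**
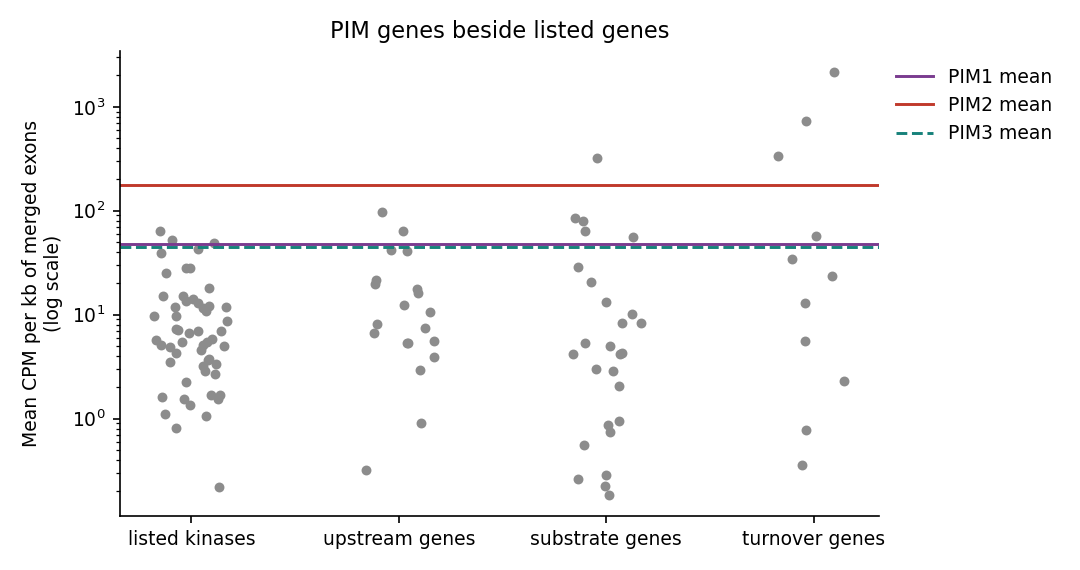
Mean CPM per kb of merged exons (log scale) of the listed kinases, upstream genes, substrate genes and turnover genes, each grey point a gene, with the means of PIM1, PIM2 and PIM3 as lines. PIM2, at 177 CPM per kb, lies above every listed kinase and upstream gene on this scale, though STAT3 lies above it in CPM without length. The means of PIM1 (47.5) and PIM3 (44.6) average libraries in which their order differs.

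Upstream of PIM transcription, 19 of 20 listed receptor, JAK, STAT and NF-kB genes reached 1 CPM in every library, as did 68.0% of all genes. The list median was 11.5, 8.92 and 8.77 CPM per kb in replicates 1, 2 and 3. STAT3, which binds and activates PIM genes downstream of cytokines, had 132, 69.9 and 92.6 CPM per kb. Without length STAT3 had 1162, 616 and 816 CPM, above the 394, 592 and 477 CPM of PIM2. JAK1 followed, then STAT6 at 42.1 ± 13.1 and NFKB1, which encodes the p50 subunit of NF-kB, at 40.8 ± 12.0 CPM per kb. JAK2 was the lowest, with 13, 4 and 1 counts. STAT3 was highest in replicate 1, as were 43.1% of genes of at least 10 CPM, and lowest in replicate 2. PIM2 was highest in replicate 2 and lowest in replicate 1. A link between the levels of STAT3 and PIM2 was not tested. By the chi-square test 15 of the 19 upstream genes tested (78.9%) varied, beside 67.2% of all genes tested and 86.0% of those with a mean count of at least 100. STAT6 has exons that overlap opposite-strand genes.

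Downstream, 22 of 27 listed substrate genes reached 1 CPM in every library, beside 68.0% of all genes. Their median was 6.04, 3.27 and 3.98 CPM per kb in replicates 1, 2 and 3. EIF4B, a translation initiation factor, had 215, 332 and 421 CPM per kb and was the only listed substrate above PIM2 per kb. Without length the mean of SND1, at 555 CPM, was also above that of PIM2, at 488 CPM. SND1, a transcriptional coactivator, had 85.3 ± 13.5 CPM per kb, the chemokine receptor gene CXCR4 80.1 ± 38.7 and the CDK inhibitor gene CDKN1A 63.2 ± 31.8 CPM per kb. SOCS1, a feedback inhibitor of JAK kinases, had 5, 0 and 0 counts, where a count of 0 allows up to 1.89 CPM in replicate 2 and 2.30 in replicate 3. EIF4B and CDKN1A have exons that overlap an opposite-strand gene. Of the 22 substrate genes tested, 16 (72.7%) varied, near the 67.2% of all genes tested.

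Of 11 genes listed for the turnover of PIM proteins and messengers, 10 reached 1 CPM in every library, beside 68.0% of all genes. Their median was 30.4, 9.13 and 23.7 CPM per kb in replicates 1, 2 and 3. The chaperone genes HSP90AB1 and HSP90AA1, whose products stabilise PIM1 protein, had 2166 ± 597 and 730 ± 266 CPM per kb. HSPA8, a chaperone of the HSP70 family, had 334 ± 134 and PPP2CA, the catalytic subunit of the phosphatase PP2A, 57.2 ± 16.1 CPM per kb. The PP2A subunit gene PPP2R5B was the lowest, with 11, 1 and 1 counts. Of the 10 turnover genes tested 9 varied between libraries, beside 67.2% of all genes tested and 86.0% of those with a mean count of at least 100. HSP90AA1, PPP2CA and PPP2R5B have exons that overlap opposite-strand genes.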

How the data were processed

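Raw read counts per gene were deposited by the authors for 3 libraries of Trizol-extracted RNA prepared with an Illumina TruSeq kit. The submitters' processing notes name STAR, edgeR and hg38, without versions; the counter and its strand setting are not given there. Values of the deposited log2 table are log2 CPM made by the authors, that is the log2 of a scaled count plus 0.452 CPM. GENCODE release 29 (GRCh38) gave symbols, positions and lengths for 15668 IDs, matched after removing the version; the other 140 stayed in the totals.

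Counts were scaled with TMM (edgeR 4.0.16, R 4.3.3). The chi-square test covered genes whose mean count reached 10 and used Benjamini-Hochberg adjustment and a threshold of 0.05. It was run on simulated Poisson counts, where it found 64% of 2-fold and 100% of 4-fold changes and called 0.0814% of unchanged genes. Those counts hold counting error only, so they do not show how the test behaves with wider spread between libraries. Ratios used log2(CPM + 0.5). A count of 0 allows up to 3 counts; such limits and intervals hold for counting error alone, as reads lacking molecular identifiers are not independent molecules. The PIM genes, the 4 lists and the tests were chosen with earlier results of these data known, and no list was tested. Named are all PIM genes, the top 4 and the lowest gene of each list per kb, AKT1, AKT2 and the 3 nearest profiles of each PIM gene; 1 gene under this rule is not reported here. JAK1 and RELA each stand in 2 lists. Alternatives were DESeq2 1.42.0 size factors, column totals, the deposited log2 values, other lengths, filters, pseudocounts and thresholds, thinning and leaving out each replicate.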

Additional observations from a re-analysis of the deposited data

How the results depend on the processing

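PIM2 lay above PIM1 and PIM3 per kb under every length, pseudocount and left-out replicate tried, with a log2 ratio of PIM2 to PIM1 of 1.67 to 2.17 over the left-out replicates. The deposited log2 values, which use smaller library constants, gave means of 193 CPM for PIM1 and 668 CPM for PIM2. Thinned to equal depth, PIM1 had an adjusted p of 0.0583 (chi-square test). With column totals in place of TMM scaling the adjusted p of PIM1 was 0.0229 (chi-square test). With each replicate left out in turn, the adjusted p ran from 0.000611 to 0.492 for PIM1 and from 2.46e-32 to 0.556 for PIM3 (chi-square test), and the number of genes that varied ran from 2854 to 5890. In the same way the varying genes numbered 7 to 16 among substrates, 7 to 14 among upstream genes, 4 to 9 among turnover genes and 22 to 39 among kinases. With all 3 libraries 22, 19, 10 and 54 of these were tested. The lowest number came each time without replicate 1, and 26 kinases varied without replicate 2. Over all genes the number was also lowest without replicate 1, at 2854 of 8447 tested (33.8%). It was 4700 of about 10390 without replicate 2 and 5890 of about 10490 without replicate 3. Of 149 values under alternatives, 138 kept their direction and side of the threshold or moved by less than the spread. For PIM3 that spread is wide, at 84.5 CPM on a mean of 110 CPM. Its means of 63.9 CPM without replicate 1 and 150 CPM from the deposited log2 values are therefore among the 138. So is its share without replicate 1, at 9.54% beside a mean of 16.2%. The kinase comparison under other lengths was added after seeing the data. No paired analysis was possible because the labels give 1 group.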
